A study of Mus musculus with 17 samples.

Results

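The testes of 2 Inha KO and 3 Inha WT mouse embryos at E13.5 were compared across all genes, 5 of the 17 libraries of a series that also holds E15.5 and newborn (PND 0) testes. The libraries were chosen by their titles, which give the genotype and the age. Each was made from whole testis RNA of the C57/Bl6 strain. Testes had been dissected free of the mesonephros. The KO embryos lack the mature coding sequence of Inha in every cell, the WT embryos carry the gene intact, and both came from heterozygote matings. No treatment was given, and embryonic age had been set by vaginal plug and by limb development at collection. The study describes the animals as littermates but the labels do not give the litters. The p-values rest on the spread among libraries, estimated over all 17 of the series, and do not measure a spread among litters. Inha encodes the subunit that turns activin subunits into inhibins, and inhibins oppose activins at their receptors. At this age the testis cords have just formed: Sertoli cells and germ cells lie inside them, and fetal Leydig cells, the steroid-producing cells, begin to appear between them. Leydig cells make androgens from cholesterol through a short chain of enzymes that starts in the mitochondrion.

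The deposited values are counts per gene, with 21020002 to 22116967 counts in the E13.5 libraries, so 1 CPM (a gene's count scaled by the TMM-corrected library total) is about 21 to 22 counts. Inha had 0.0911 and 1.64 CPM in the KO testes, against 438, 353 and 441 CPM in the WT testes (log2 fold change -8.88, SE 0.55) by the quasi-likelihood test of edgeR (adjusted p = 4.1e-08). The transcript was nearly absent from both KO libraries, which matches their labels. Obsl1, which lies next to Inha on chromosome 1, had 335 and 315 CPM in KO testes, against 522, 547 and 483 CPM in WT testes (log2 fold change -0.67, adjusted p = 0.0014, edgeR). The 2 KO libraries were close to each other, with an SD of 0.168 for the log2 difference over 12198 genes. The WT libraries differed more among themselves, with an SD of 0.194 between replicates 1 and 2, 0.210 between replicates 1 and 3 and 0.284 between replicates 2 and 3, while each KO library differed from each WT library with an SD of 0.308 to 0.399.

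The WT testes also differed in features that change with embryonic stage. Embryonic beta-globins (Hbb-y and Hbb-bh1), made by the early red cells, were 74.7% and 79.7% of all beta-globin CPM in the KO testes, against 53.9%, 66.8% and 23.9% in the WT testes. Nanos2, a gene of male germ cell commitment, had 0.410 and 0.456 CPM in KO testes, against 2.68, 0.895 and 16.2 CPM in WT testes. By these measures WT replicate 3 stood farthest from the KO testes and WT replicate 2 nearest. A difference in stage within E13.5 and an effect of the genotype cannot be told apart from these values alone. Hbb-y had 1563 and 1223 CPM in the KO testes, and in WT replicate 2 it had 1287 CPM, a value between them. Hba-x, another globin gene, had 583 and 685 CPM in the KO testes and 484 CPM in WT replicate 2. By Hba-x, the embryonic share and Nanos2, WT replicate 2 lay outside the KO values. It was not shown to match the KO testes in stage. For the Leydig enzyme Cyp11a1 the KO testes had 18.03 and 24.1 CPM, against 551 CPM in WT replicate 2. Fos, an immediate early gene, had 1.46 and 1.82 CPM in KO testes, against 1.84, 33.0 and 1.57 CPM in WT testes, so WT replicate 2 stood apart in it.

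Of 18635 genes tested, 534 (2.87%) were changed in KO testes, which means that the adjusted p was below 0.05 and KO and WT differed by 1.5-fold or more. Of the 534, 435 (2.33% of the genes tested) were lower and 99 (0.531%) were higher. By the adjusted p alone 819 genes (4.39%) passed. The KO and WT libraries did not overlap for any of the 534, while 36% of all tested genes showed no overlap. The falls were also larger, with a median log2 fold change of -1.31 against 0.87 for the rises, and 115 genes were lower but 9 higher by more than 4-fold. Together the lower genes held 9772 CPM in KO testes and 24150 CPM in WT testes (means of the libraries). Among them WT replicate 2 was the WT library nearest to KO for 317 genes and WT replicate 3 the farthest for 259. The count of changed genes was 299 without KO replicate 1, 299 without KO replicate 2 and 283 with WT replicate 2 as the only WT library, which was chosen after the values above were seen.

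**Figure D1:**
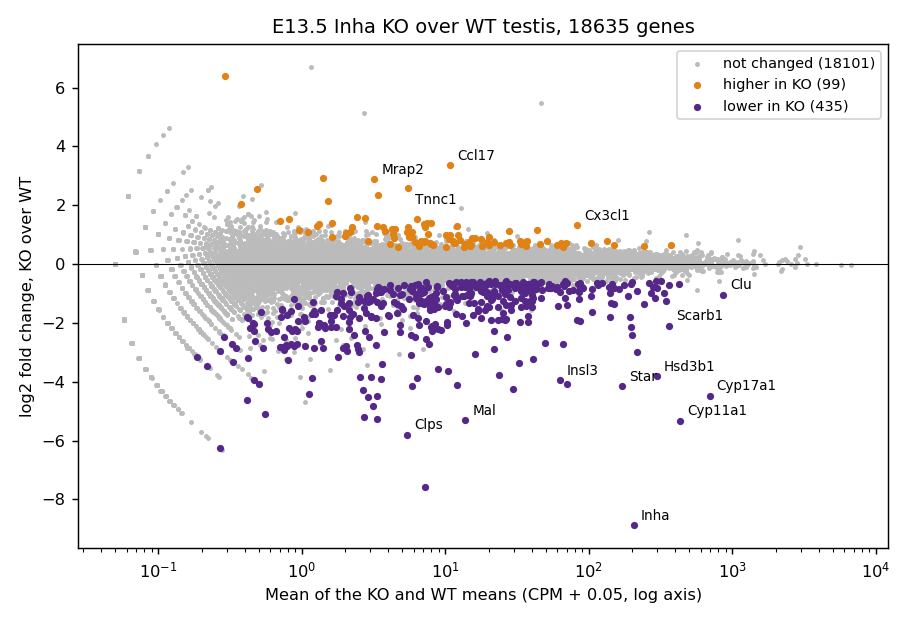
Each point is 1 of 18635 genes, with the mean of the KO and WT mean levels on the log x axis (CPM + 0.05) and the log2 fold change of KO over WT at E13.5 on the y axis. The 435 lower genes (purple) reach farther from 0 than the 99 higher genes (orange), and the named Leydig enzymes lie among the most abundant of the lower genes.

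The carrier and the enzymes of the first steps from cholesterol to androgens were far lower in the KO testes. Of 20 tested genes of the pathway 9 were lower and 0 higher. That is 45.0% of them, against 2.33% of all genes. Star, which carries cholesterol into the mitochondrion, had 17.5 and 19.0 CPM in KO testes, against 341, 211 and 419 CPM in WT testes (log2 fold change -4.15, adjusted p = 4.1e-08, SE 0.26, edgeR). Cyp11a1, which cleaves the side chain of cholesterol in the first enzymatic step, had 18.03 and 24.1 CPM in KO testes, against 883, 551 and 1099 CPM in WT testes (log2 fold change -5.32, adjusted p = 2.2e-07, SE 0.38, edgeR). Its electron donors were lower too, Fdx1 at 12.6 and 14.0 CPM in KO against 91.9, 73.0 and 93.5 CPM in WT (log2 fold change -2.70, adjusted p = 4.1e-08, edgeR), and Fdxr by less (log2 fold change -0.72, adjusted p = 2.9e-05, edgeR). With WT replicate 2 as the only WT library, the log2 fold changes were -3.53 for Star (adjusted p = 1.7e-07, edgeR) and -4.71 for Cyp11a1 (adjusted p = 3.7e-06, edgeR). In bulk tissue fewer Leydig cells and less of a transcript per Leydig cell cannot be told apart.

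The next enzymes of the chain were lower too. Hsd3b1, which makes progesterone, had 37.5 and 41.5 CPM in KO testes, against 588, 444 and 633 CPM in WT testes (log2 fold change -3.81, adjusted p = 2.2e-08, SE 0.21, edgeR). Cyp17a1, which commits the steroid to the androgens, had 51.1 and 68.0 CPM in KO testes, against 1373, 837 and 1769 CPM in WT testes (log2 fold change -4.48, adjusted p = 8.1e-07, SE 0.36, edgeR). For both genes the highest KO value was under the lowest WT value. Its partner reductase Por fell less (log2 fold change -0.64, adjusted p = 0.011, edgeR). Hsd3b6, a near copy of Hsd3b1, ran the other way, at 19.2 and 20.4 CPM in KO testes, against 9.04, 13.6 and 3.57 CPM in WT testes. It did not pass the test (log2 fold change 1.18, adjusted p = 0.087, SE 0.37, edgeR), and reads shared between the copies could move counts from one to the other. The steps that fetal Sertoli cells carry out did not pass either. Hsd17b3, which makes testosterone from androstenedione, had 50.3 and 48.3 CPM in KO testes, against 56.6, 55.9 and 59.3 CPM in WT testes (adjusted p = 0.22, edgeR), and Hsd17b1 had 57.2 and 45.6 CPM against 32.9, 17.5 and 47.2 CPM (adjusted p = 0.23, edgeR). Without WT replicate 3, Hsd17b1 was called higher (log2 fold change 1.03, adjusted p = 0.0337, edgeR), and without WT replicate 2 so was Hsd3b6 (log2 fold change 1.65, adjusted p = 0.013, edgeR), which limma voom also called. With WT replicate 2 as the only WT library the log2 fold change of Hsd17b1 was 1.56, against 0.66 with all libraries. Por was not called without KO replicate 1 (adjusted p = 0.0968, edgeR) or KO replicate 2 (adjusted p = 0.114, edgeR). Tspo, a mitochondrial outer membrane protein, had 13.2 and 12.96 CPM in KO testes, against 17.6, 15.9 and 14.3 CPM in WT testes (adjusted p = 0.27, edgeR), and Srd5a1, a steroid reductase, had 12.4 and 12.8 CPM against 12.4, 12.9 and 13.1 CPM (adjusted p = 0.97, edgeR).

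Of 7 genes typical of the adrenal cortex, some of which are known in fetal Leydig cells of mice as well, 5 were lower in KO testes and 1 was higher. That is 71.4% lower, against 2.33% of all genes lower and 0.531% higher. Cyp11b1, an enzyme of corticosterone synthesis, had 0 and 3 counts in KO testes, and 15.3, 4.84 and 22.4 CPM in WT testes (adjusted p = 3.6e-04, edgeR). Cyp21a1, another such enzyme, had 0.182 and 0.137 CPM in KO testes, against 6.68, 2.28 and 10.4 CPM in WT testes (adjusted p = 0.018, edgeR). The call for Cyp21a1 was lost without WT replicate 3 (adjusted p = 0.057, edgeR), KO replicate 1 (adjusted p = 0.182, edgeR) or KO replicate 2 (adjusted p = 0.197, edgeR). With limma voom neither Cyp11b1 nor Cyp21a1 was called, and with edgeR's robust fit Cyp21a1 was not. Mc2r, the ACTH receptor, had 3.69 and 4.06 CPM in KO testes, against 9.98, 9.98 and 8.85 CPM in WT testes (log2 fold change -1.31, adjusted p = 8.3e-05, edgeR). Mrap, which brings that receptor to the cell surface, fell more (0.637 and 0.593 CPM in KO, 7.25, 5.51 and 6.71 CPM in WT, adjusted p = 4.8e-06, edgeR), while its relative Mrap2 was higher, at 5.05 and 5.98 CPM in KO against 1.27, 0.313 and 0.666 CPM in WT (log2 fold change 2.88, adjusted p = 1.3e-04, edgeR).

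**Figure D2:**
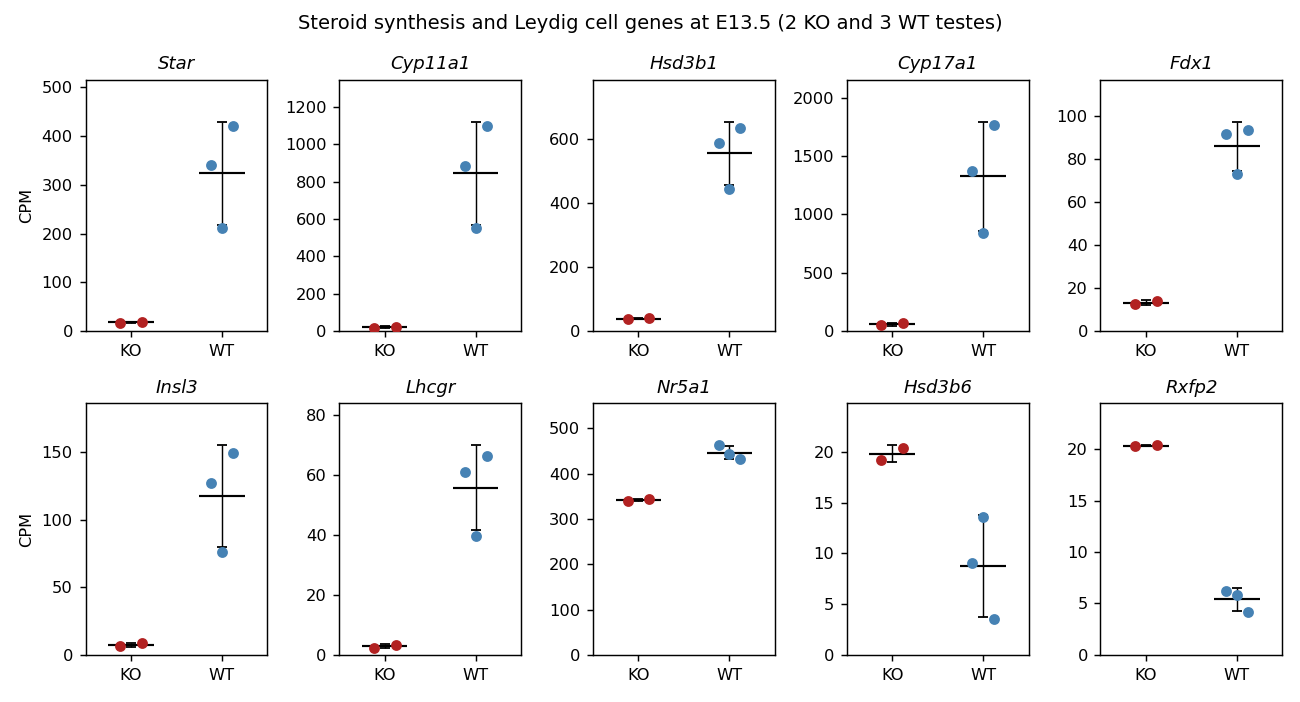
CPM of 10 genes in each E13.5 testis, with KO libraries (red, n = 2) left of WT libraries (blue, n = 3), the horizontal line at the mean and the bar giving the SD. The 5 enzyme and carrier genes, Insl3 and Lhcgr have KO values under every WT value, and Nr5a1 differs little. Hsd3b6 and Rxfp2 have KO values above every WT value without passing the test. Of all tested genes 36% showed no overlap.

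Of 18 genes for Leydig cell hormones and receptors 12 were lower, 1 was higher and 5 were not called, against 2.33% of all genes lower and 0.531% higher. Insl3, the Leydig hormone of testis descent, had 6.42 and 8.67 CPM in KO testes, against 127, 75.7 and 149 CPM in WT testes (log2 fold change -3.96, adjusted p = 1.8e-06, SE 0.34, edgeR). Lhcgr, the receptor for luteinising hormone, had 2.41 and 3.42 CPM in KO testes, against 61.1, 39.7 and 66.6 CPM in WT testes (log2 fold change -4.25, adjusted p = 6.4e-07, SE 0.33, edgeR). Receptors for peptides that are not gonadotropins were low as well. Oxtr, the oxytocin receptor, had 5.51 and 5.93 CPM in KO testes, against 64.5, 44.6 and 67.6 CPM in WT testes (log2 fold change -3.36, adjusted p = 1.8e-08, edgeR), and Crhr1, a receptor for corticotropin-releasing hormone, had 3.19 and 3.65 CPM against 30.6, 24.1 and 30.7 CPM (log2 fold change -3.06, adjusted p = 6.1e-08, edgeR). Agt, the precursor of angiotensin, fell with its processing enzyme renin (Agt log2 fold change -3.76, adjusted p = 3.0e-07; Ren1 log2 fold change -2.98, adjusted p = 4.1e-05, edgeR). Ntsr1, the neurotensin receptor, was the 1 gene of this list that rose, to 13.3 and 9.49 CPM in KO testes, against 4.75, 2.87 and 5.37 CPM in WT testes (log2 fold change 1.40, adjusted p = 0.0014, edgeR). Without KO replicate 1 Ntsr1 was not called (log2 fold change 1.13, adjusted p = 0.0503, edgeR). Prlr, the prolactin receptor, had 14.8 and 12.2 CPM in KO testes, against 56.0, 32.1 and 70.4 CPM in WT testes (log2 fold change -1.97, adjusted p = 1.9e-04, edgeR). Nppc, which encodes C-type natriuretic peptide, had 5.56 and 5.48 CPM in KO testes, against 22.7, 20.2 and 24.1 CPM in WT testes (log2 fold change -2.02, adjusted p = 7.1e-04, edgeR). Pdgfra, a receptor of interstitial cells at large, had 761 and 609.9 CPM in KO testes, against 551, 457 and 641 CPM in WT testes and did not pass (adjusted p = 0.22, edgeR). Rxfp2, which encodes the receptor of INSL3, had 20.3 and 20.4 CPM in KO testes, against 6.21, 5.87 and 4.14 CPM in WT testes, and did not pass the test (adjusted p = 0.084, edgeR). It was called higher in the fit without PND 0 KO replicate 1 (adjusted p = 0.022, edgeR) and in that without PND 0 KO replicate 3 (adjusted p = 0.00336, edgeR), which share the model's estimate of spread. It was also called higher by limma voom and by the fit of the E13.5 libraries alone, which called 430 changed genes in all.

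Changes among the regulators of Leydig identity were smaller than those of Star and Cyp11a1. Of 22 transcription factors and cofactors 3 were lower and 0 higher. That is 13.6% lower, against 2.33% of all genes, with a median log2 fold change of 0.01 (median of all genes -0.0031). In bulk tissue these levels do not show what the Leydig cells themselves held. Cited1, a transcription cofactor, had 22.4 and 17.3 CPM in KO testes, against 53.4, 47.6 and 58.0 CPM in WT testes (log2 fold change -1.42, adjusted p = 1.1e-05, edgeR), and Cebpa had 19.99 and 22.04 CPM against 52.8, 43.9 and 55.6 CPM (log2 fold change -1.27, adjusted p = 0.0025, edgeR). Cited2 was the other (log2 fold change -0.72, adjusted p = 0.014, edgeR). Without KO replicate 1 neither Cebpa (adjusted p = 0.0559, edgeR) nor Cited2 (adjusted p = 0.0902, edgeR) was called, and without KO replicate 2 Cited2 was not (adjusted p = 0.199, edgeR). Nr5a1 (SF-1), the master regulator of steroid enzyme genes, had 339 and 343 CPM in KO testes, against 462, 443 and 433 CPM in WT testes, and missed the call (log2 fold change -0.39, adjusted p = 0.052, SE 0.11, edgeR). Its KO values lay under every WT value, and 36% of all tested genes showed no overlap. Nr2f2 and Tcf21, which mark interstitial progenitor cells, both had a log2 fold change of 0.24 and did not pass (adjusted p = 0.24 for each, edgeR), and of 21 interstitial progenitor genes 0 passed in either direction by edgeR (7 at an unadjusted p below 0.05, which 16.2% of all genes passed, 0 by DESeq2 and 0 by limma voom). Of 14 hedgehog genes, a pathway that drives fetal Leydig cells to form, only Shh passed, at 0.137 CPM in both KO testes, against 2.21, 1.70 and 2.38 CPM in WT testes (adjusted p = 6.5e-04, edgeR), which is 3 counts in each KO library. Dhh, the hedgehog ligand of Sertoli cells, had 154 and 150 CPM in KO testes, against 159, 165 and 126 CPM in WT testes.

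Almost the whole pathway of cholesterol synthesis was lower in the KO testes. Of 22 genes 20 passed in the lower direction (90.9%, against 2.33% of all genes), all but Ggps1 and Lbr. The median log2 fold change of the 22 was -1.25 (all genes -0.0031). Hmgcs1, at the entry of the pathway, had 191 and 213 CPM in KO testes, against 505, 375 and 568 CPM in WT testes (log2 fold change -1.26, adjusted p = 4.6e-05, SE 0.15, edgeR). Lss, which closes the sterol rings, had 32.6 and 36.3 CPM in KO testes, against 133, 93.0 and 163 CPM in WT testes (log2 fold change -1.91, adjusted p = 2.8e-06, SE 0.17, edgeR). Dhcr7, which makes cholesterol in the last step, had 58.1 and 65.3 CPM in KO testes, against 225, 162 and 264 CPM in WT testes (log2 fold change -1.82, adjusted p = 3.6e-06, SE 0.17, edgeR). Between these steps lie Fdps, a maker of farnesyl diphosphate, at 8.20 and 11.4 CPM in KO testes, against 38.5, 29.6 and 42.8 CPM in WT testes (log2 fold change -1.92, adjusted p = 2.2e-05, edgeR), and Cyp51, which removes a methyl group of lanosterol, at 78.8 and 88.5 CPM in KO testes, against 226, 162 and 262 CPM in WT testes (log2 fold change -1.37, adjusted p = 5.3e-05, edgeR). Idi1, an isomerase of the early pathway, had 6.60 and 10.1 CPM in KO testes, against 22.4, 15.4 and 24.2 CPM in WT testes (log2 fold change -1.31, adjusted p = 0.0034, edgeR) and was not called without KO replicate 1 (adjusted p = 0.102, edgeR). The fitted falls of these genes were smaller than those of Star and Cyp11a1, and they ran from the first to the last step. With WT replicate 2 as the only WT library 15 of the 22 were lower.

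**Figure D3:**
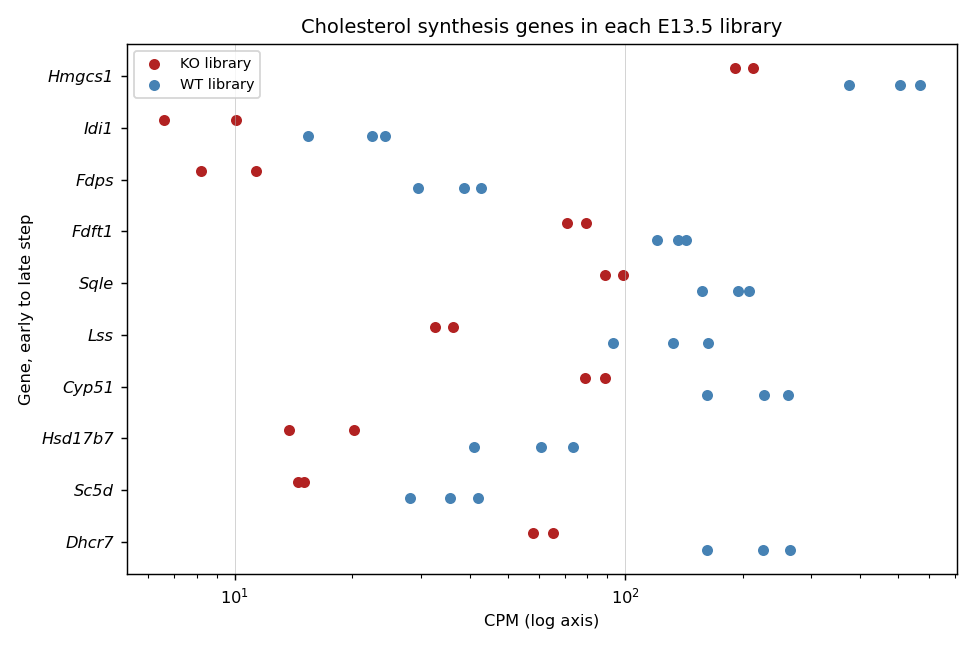
CPM on a log axis of 10 cholesterol synthesis genes, from an early step (top) to a late step (bottom), with 1 point for each KO library (red) above 1 for each WT library (blue). In every gene the 2 KO values lie under the 3 WT values, and KO and WT did not overlap for any of the 534 changed genes.

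Some genes of sterol uptake and sensing were lower as well. Scarb1, the receptor for lipoprotein cholesterol, had 132 and 143 CPM in KO testes, against 595, 461 and 701 CPM in WT testes (log2 fold change -2.09, adjusted p = 9.1e-05, edgeR). Of 22 such genes 6 were lower (27.3%, against 2.33% of all genes) and 0 higher. Srebf2, the factor that drives sterol genes, was lower by less than the fold threshold (236 and 248 CPM in KO, 353, 304 and 369 CPM in WT, adjusted p = 0.0036, edgeR). Of 18 fatty acid genes 11 were lower (61.1%, against 2.33% of all genes). Among them was Acsbg1, an acyl-CoA synthetase, at 69.3 and 75.7 CPM in KO testes, against 347, 262 and 346 CPM in WT testes (log2 fold change -2.13, adjusted p = 2.2e-08, SE 0.12, edgeR). Fasn, the fatty acid synthase, was not called (log2 fold change -0.25, adjusted p = 0.18, edgeR).

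The promoters of the lipid, steroid and Leydig hormone lists were read for letters of 2 known sites, because many of the cholesterol genes moved together. RefSeq windows of GRCm38.p6, from 250 bases before to 50 after a start, were found for 17 of the 22 cholesterol genes. The SREBP-type site TCACNCCAC, on either strand, stood in 1 of their 20 windows (5.0%) and in 1.24% of all 32851 windows. It stood in 2.07% of the 387 windows of lower genes, 1.25% of the 80 windows of higher genes and 1.19% of the 15927 windows of tested genes. The NR5A-type site CAAGGTCA stood in 1 of the 20 windows and in 1.56% of all windows, and in 2.84% of the 387 windows of lower genes, 1.25% of the 80 windows of higher genes and 1.17% of the 15927 windows of tested genes. Neither site stood in the 22 windows found for sterol uptake and sensing genes, the 17 for fatty acid genes or the 13 for steroid synthesis genes, and the NR5A-type site stood in 1 of the 23 windows for Leydig hormone and receptor genes. The 2 cholesterol genes with a match are printed to show where it lies, with the site in capitals, Hmgcs1 on the plus strand of chromosome 13 (119690101 to 119690400) and Dhcr7 on the plus strand of chromosome 7 (143822917 to 143823216).
Hmgcs1 promoter: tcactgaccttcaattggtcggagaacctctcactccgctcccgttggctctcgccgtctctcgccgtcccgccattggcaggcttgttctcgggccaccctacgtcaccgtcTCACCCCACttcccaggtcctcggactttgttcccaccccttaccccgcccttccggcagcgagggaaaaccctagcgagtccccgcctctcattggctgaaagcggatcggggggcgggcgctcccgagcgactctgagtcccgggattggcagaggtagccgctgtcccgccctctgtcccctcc
Dhcr7 promoter: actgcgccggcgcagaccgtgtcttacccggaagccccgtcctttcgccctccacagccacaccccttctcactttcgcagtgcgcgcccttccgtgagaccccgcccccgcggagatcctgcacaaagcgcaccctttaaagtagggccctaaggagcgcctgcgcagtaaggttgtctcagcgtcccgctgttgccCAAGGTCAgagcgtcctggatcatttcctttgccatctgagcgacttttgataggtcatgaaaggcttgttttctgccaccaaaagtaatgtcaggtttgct
The SREBP-type site of Hmgcs1 begins 137 bases before the start and the NR5A-type site of Dhcr7 begins 52 bases before it. A match in these letters says nothing of whether a factor binds there.

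Of 33 genes of the activin system 1 was lower and 0 higher. That is 3.03% lower, near the 2.33% of all genes. A positive log2 fold change was seen in 25 of the 33 (median 0.16, all genes -0.0031). At an unadjusted p below 0.05 by edgeR 10 were higher and 3 lower. Of all genes 16.2% passed that mark in either direction. DESeq2 called 1 lower and 1 higher, and limma voom 1 lower and 0 higher. Inhba, the subunit of activin A, had 8.88 and 7.99 CPM in KO testes, against 27.1, 15.4 and 33.8 CPM in WT testes (log2 fold change -1.59, adjusted p = 0.0011, SE 0.26, edgeR). With WT replicate 2 as the only WT library it was not called (log2 fold change -0.86, adjusted p = 0.0603, edgeR). Inhbb, the subunit of activin B, had 220 and 232 CPM in KO testes, against 237, 221 and 229 CPM in WT testes. The signal transducer Smad5 was higher by less than the fold threshold, at 278 and 254 CPM in KO against 214, 198 and 189 CPM in WT (log2 fold change 0.41, adjusted p = 0.0033, edgeR), as was the SMAD corepressor Skil (log2 fold change 0.47, adjusted p = 0.012, edgeR). Fst, which encodes the activin antagonist follistatin, had 3.73 and 3.01 CPM in KO testes, against 2.45, 1.39 and 2.09 CPM in WT testes (adjusted p = 0.085, edgeR).

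Among Sertoli cell markers 7 of 28 were lower and 1 higher, against 2.33% of all genes lower and 0.531% higher. The median log2 fold change of the 28 was -0.17 (all genes -0.0031). The 7 were Cst9, Defb19, Clu, Cldn11, Aard, Etd and Itga6. Clu, a secreted chaperone, had 614 and 515 CPM in KO testes, against 1297, 926 and 1275 CPM in WT testes (log2 fold change -1.05, adjusted p = 3.0e-05, SE 0.12, edgeR). Cst9, a cystatin, had 72.2 and 59.0 CPM in KO testes, against 125, 126 and 95.7 CPM in WT testes (log2 fold change -0.82, adjusted p = 4.2e-04, edgeR). Of the 28 markers 10 were lower and 2 higher in KO testes without overlap between genotypes, while 36% of all tested genes showed no overlap. Sox9 and Amh, added after their values were seen, did overlap. Sox9, which directs Sertoli fate, had 116 and 134 CPM in KO testes, against 154, 147 and 116 CPM in WT testes, and Amh, the hormone that removes the female ducts, had 1584 and 1819 CPM against 1842, 1629 and 1581 CPM. Without KO replicate 1 Aard (adjusted p = 0.0512, edgeR) was not called, and without KO replicate 2 neither Aard (adjusted p = 0.0676, edgeR) nor Itga6 (adjusted p = 0.0592, edgeR) was. Itga6 also missed the fold threshold without WT replicate 1 (log2 fold change -0.57) and without WT replicate 3 (log2 fold change -0.55). Vnn1, a pantetheinase, was the 1 that rose, to 63.6 and 66.3 CPM in KO testes, against 36.3, 41.9 and 34.2 CPM in WT testes (log2 fold change 0.79, adjusted p = 2.5e-04, edgeR).

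Endothelial markers, which label blood vessels, were the list with the most rises, 7 of 25 higher and 0 lower (99 of all genes, 0.531%, were higher), and 24 of the 25 had a positive log2 fold change (median 0.45). Gja5, a connexin of arterial endothelium, had 59.6 and 60.7 CPM in KO testes, against 25.5, 31.8 and 23.5 CPM in WT testes (log2 fold change 1.16, adjusted p = 0.0086, SE 0.24, edgeR). Sox7, an endothelial transcription factor, had 39.7 and 50.4 CPM in KO testes, against 25.1, 31.8 and 23.6 CPM in WT testes (log2 fold change 0.75, adjusted p = 0.0021, edgeR). The others that passed were Cldn5, Fli1, Gja4, Bmx and Mecom. Pecam1, the platelet and endothelial adhesion protein, had 139.8 and 157 CPM in KO testes, against 102, 129.8 and 108 CPM in WT testes and did not pass (adjusted p = 0.21, edgeR), nor did Cdh5, the cadherin of endothelial junctions, at 242 and 251 CPM in KO testes, against 183, 203 and 197 CPM in WT testes (adjusted p = 0.077, edgeR). The summed level of the 25 markers was 1442 and 1497 CPM in KO testes, against 1069, 1186 and 1106 CPM in WT testes. The count of 7 fell to 2 when WT replicate 1, WT replicate 3 or KO replicate 1 was left out, to 0 when KO replicate 2 was, and to 0 with WT replicate 2 as the only WT library. Gja5 was not called without KO replicate 1 (adjusted p = 0.0737, edgeR) or KO replicate 2 (adjusted p = 0.0872, edgeR), and Sox7 was not without KO replicate 2 (adjusted p = 0.0945, edgeR).

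Markers of the other cell types showed few calls, and the counts here stand against 2.33% of all genes lower and 0.531% higher. Of 8 peritubular myoid markers 0 passed by edgeR (0 at an unadjusted p below 0.05, 0 by DESeq2 and 0 by limma voom). Of 16 macrophage markers 1 was higher and 0 lower, and that call was lost without WT replicate 1, WT replicate 3 or KO replicate 2. Of 25 germ cell markers Nanos2 was lower and Bcl6b higher, and 22 had a negative log2 fold change (median -0.64, all genes -0.0031). Among all 18635 genes 9438 had a negative one. The study counts Bcl6b, a transcriptional repressor, among markers of spermatogonial stem cells. In bulk tissue the cells that gave its reads cannot be told. The summed level of the 25 germ cell markers was 773 and 1025 CPM in KO testes, against 954, 1220 and 1459 CPM in WT testes, so the genotypes overlapped. Nanos2 (log2 fold change -3.90, adjusted p = 0.042, edgeR) was not called without WT replicate 3 (log2 fold change -2.03, adjusted p = 0.191, edgeR), without KO replicate 1 (adjusted p = 0.306, edgeR) or without KO replicate 2 (adjusted p = 0.27, edgeR). Bcl6b (log2 fold change 0.64, adjusted p = 0.044, edgeR) was not called without WT replicate 1 (adjusted p = 0.118, edgeR), WT replicate 3 (adjusted p = 0.162, edgeR), KO replicate 1 (adjusted p = 0.111, edgeR) or KO replicate 2 (adjusted p = 0.371, edgeR).

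**Figure D4:**
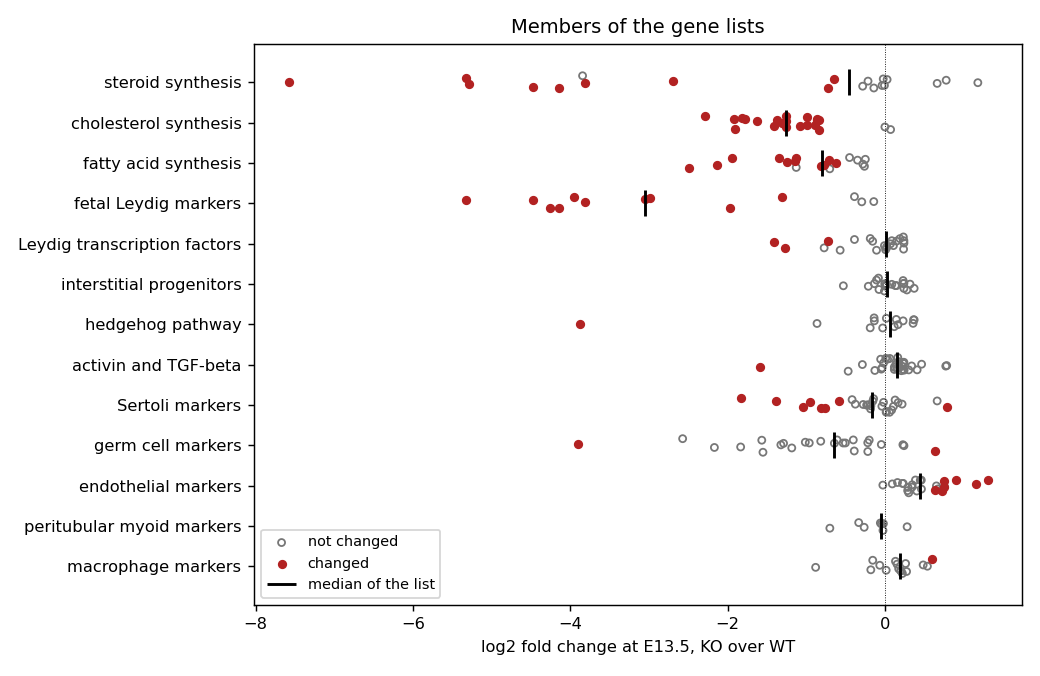
Log2 fold change at E13.5, KO over WT, of every tested member of 13 gene lists, with filled points for genes that passed the test and the fold threshold, open points for the others and a bar at the median of the list. Cholesterol synthesis (median -1.25) and fetal Leydig markers (median -3.06) lie far to the left and endothelial markers (median 0.45) to the right. Interstitial progenitors and Leydig transcription factors have medians near 0. Some lists share members, such as Star and Cyp11a1 in steroid synthesis and fetal Leydig markers.

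Other families changed in part, and their counts stand against 2.33% of all genes lower and 0.531% higher. Of 21 heat shock genes 5 were lower and 1 higher. The inducible Hspa1a and Hspa1b were among the 5, Hspa1a at a log2 fold change of -1.53 (adjusted p = 0.0025, edgeR) and Hspa1b at -1.42 (adjusted p = 0.0020, edgeR), and so were the mitochondrial chaperonins Hspd1 and Hspe1, at -0.59 and -0.64 (adjusted p = 7.8e-04 and 0.0028, edgeR). Hspa1a and Hspa1b are near copies whose reads may be shared, and Hspd1 and Hspe1 overlap at their starts. Without KO replicate 1, Hspa1a (adjusted p = 0.0637, edgeR), Hspa1b (adjusted p = 0.0606, edgeR) and Hspe1 (adjusted p = 0.0771, edgeR) were not called, and Hspd1 missed the fold threshold without KO replicate 1 (log2 fold change -0.53) and WT replicate 3 (log2 fold change -0.52). Without WT replicate 3, Hspe1 missed it too (log2 fold change -0.56). Of the 5, 2 kept the call without WT replicate 3 and 1 did without KO replicate 1, and the 1 that rose lost it without KO replicate 1. Of 31 Hox genes, which set position along the body, 4 were higher and 0 lower, and 30 had a positive log2 fold change (median 0.39). Hoxa9 had 7.01 and 8.81 CPM in KO testes, against 3.86, 4.25 and 2.90 CPM in WT testes (log2 fold change 1.10, adjusted p = 0.0061, edgeR) and was not called without KO replicate 2 (adjusted p = 0.134, edgeR). Of the 4 Hox genes, 2 kept the call when either WT replicate 1 or KO replicate 1 was left out, and 1 did when WT replicate 3 or KO replicate 2 was. Of 33 cell cycle genes 2 were lower. Cdkn1c, a cyclin-dependent kinase inhibitor, had 149 and 147 CPM in KO testes, against 305, 308 and 233 CPM in WT testes (log2 fold change -0.93, adjusted p = 3.6e-04, edgeR), and Cdk18 was the other (log2 fold change -1.30, adjusted p = 0.0020, edgeR). Detoxifying enzymes fell in part, 3 of 18 glutathione S-transferases, among them Gsta2 (log2 fold change -2.07, adjusted p = 6.6e-06, edgeR), and 5 of 19 aldehyde dehydrogenases, among them Aldh1l1 (log2 fold change -1.91, adjusted p = 1.1e-05, edgeR). Without KO replicate 2, 1 of the 3 glutathione S-transferases and all 5 aldehyde dehydrogenases kept the call.

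The larger rises included chemokines and a contractile gene. Ccl17, a T cell chemokine, had 21.9 and 17.1 CPM in KO testes, against 1.84, 1.48 and 2.42 CPM in WT testes (log2 fold change 3.35, adjusted p = 1.1e-08, SE 0.16, edgeR). Tnnc1, the cardiac and slow muscle troponin C, had 9.79 and 8.94 CPM in KO testes, against 1.51, 1.34 and 1.81 CPM in WT testes (log2 fold change 2.59, adjusted p = 5.2e-07, SE 0.20, edgeR). Cx3cl1, a membrane-bound chemokine, had 116 and 120 CPM in KO testes, against 47.8, 51.7 and 42.3 CPM in WT testes (log2 fold change 1.32, adjusted p = 2.6e-05, edgeR). Pnmt, the enzyme of adrenaline synthesis, had 5.37 and 5.84 CPM in KO testes, against 1.32, 0.985 and 0.951 CPM in WT testes (log2 fold change 2.37, adjusted p = 1.7e-05, edgeR), with Chga, a chromaffin granule protein, lower (log2 fold change -1.97, adjusted p = 0.0025, edgeR), a call that was lost without KO replicate 1 (adjusted p = 0.0661, edgeR). Among the largest falls outside the steroid genes was Mal, a proteolipid of membrane traffic, at 0.364 and 0.958 CPM in KO testes, against 28.8, 32.3 and 18.7 CPM in WT testes (log2 fold change -5.32, adjusted p = 1.0e-06, SE 0.43, edgeR). Clps, pancreatic colipase, had 0.228 and 0.137 CPM in KO testes, against 13.04, 5.55 and 12.8 CPM in WT testes (log2 fold change -5.80, adjusted p = 1.2e-05, edgeR), and Xdh, the xanthine dehydrogenase, had 0.228 and 0.0456 CPM against 6.68, 3.58 and 5.33 CPM (log2 fold change -5.19, adjusted p = 1.5e-06, edgeR). The KO values of Clps were 5 and 3 counts and those of Xdh 5 and 1 counts. Egr4, an early growth response factor, had 0.592 and 0.639 CPM in KO testes, against 4.75, 1.43 and 26.8 CPM in WT testes, and its call (log2 fold change -4.14, adjusted p = 0.029, edgeR) was lost without WT replicate 3 (log2 fold change -2.31, adjusted p = 0.0848, edgeR), without KO replicate 1 (adjusted p = 0.249, edgeR) and without KO replicate 2 (adjusted p = 0.228, edgeR).

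Peptide hormone and complement genes fell in part. Of 16 genes for peptide hormones 6 were lower (37.5%, against 2.33% of all genes) and 0 higher. Npy, neuropeptide Y, had 1.96 and 0.776 CPM in KO testes, against 13.8, 7.39 and 27.7 CPM in WT testes (log2 fold change -3.57, adjusted p = 4.0e-04, edgeR), Pdyn, the dynorphin precursor, had 16.2 and 19.6 CPM against 46.4, 35.0 and 67.2 CPM (log2 fold change -1.47, adjusted p = 8.8e-04, edgeR), and Sct, secretin, had 5.69 and 5.43 CPM against 17.8, 14.8 and 21.4 CPM (log2 fold change -1.69, adjusted p = 1.1e-04, edgeR). Of 16 complement genes 4 were lower and 0 higher. C4b, a form of complement component C4, had 0.273 and 0.228 CPM in KO testes, against 5.60, 3.09 and 6.37 CPM in WT testes (log2 fold change -4.29, adjusted p = 3.4e-05, edgeR), with reads that may be shared with its near copy C4a. C7, a part of the membrane attack complex, had 3.28 and 3.01 CPM in KO testes, against 15.7, 11.2 and 16.6 CPM in WT testes (log2 fold change -2.20, adjusted p = 9.1e-05, edgeR). Of 79 potassium channel genes 9 were lower and 1 higher. That is 11.4% lower, against 2.33% of all genes lower and 0.531% higher. Of these 9, 5 kept the call when WT replicate 1 was left out. With either KO replicate left out, 4 of the 9 kept it, and the 1 that rose lost its call without KO replicate 2.

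Of genes that the study discusses at this age, Sel1l3 was higher, at 167 and 168 CPM in KO testes, against 108, 84.0 and 103 CPM in WT testes (log2 fold change 0.77, adjusted p = 3.9e-04, SE 0.11, edgeR). Gja1, the main connexin of the testis, had 299.5 and 305 CPM in KO testes, against 392, 301 and 374 CPM in WT testes and did not pass (adjusted p = 0.21, edgeR). By Fluidigm PCR, a different assay, the study reports a significant fall of Gja1 in Inha KO testes at E13.5. Col4a1, a chain of basement membrane collagen, had 2006 and 1992 CPM in KO testes, against 2290, 2300 and 2400 CPM in WT testes (adjusted p = 0.52, edgeR). Tex14, which keeps germ cell bridges open, had 32.6 and 45.6 CPM in KO testes, against 44.1, 50.3 and 84.7 CPM in WT testes (adjusted p = 0.43, edgeR), and Cep55, a midbody protein, had 37.6 and 34.0 CPM against 30.1, 31.9 and 37.4 CPM (adjusted p = 0.69, edgeR). The KO and WT libraries overlapped for Gja1, Tex14 and Cep55.

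The KO effect on many of these genes differed between ages. By the test of the difference itself, the KO effect differed from that at E15.5 for 320 genes (1.72%) and from that at PND 0 for 528 genes (2.83%), and both counts share the E13.5 libraries. Of the 22 cholesterol genes the effect differed from E15.5 for 17 and from PND 0 for 18, and of the 13 fetal Leydig markers for 12 and 9. Those markers include steroid synthesis and Leydig hormone genes already counted above. The 3 E15.5 libraries titled WT carry a genotype label of KO, but Inha stood at 1.32 ± 1.63 CPM in the E15.5 libraries titled KO and 604.5 ± 49.3 CPM in those titled WT (SD, n = 3 each), so the titles were followed. At E15.5 Cyp11a1 stood at 1805 ± 110 CPM in KO and 1540 ± 85.6 CPM in WT testes, and at PND 0 at 616 ± 293 CPM in KO and 1012 ± 182 CPM in WT testes (SD, n = 3 each). Its log2 fold change at E13.5 minus that at E15.5 came to -5.55 by the edgeR interaction test (adjusted p = 2.1e-06, SE 0.44). Oxtr had log2 fold changes of -3.36, 0.34 and -0.17 at the 3 ages, and its value at E13.5 minus that at E15.5 came to -3.70 by the edgeR interaction test (SE 0.21, adjusted p = 8.2e-08). Cyp11b1 was low at all 3 ages (log2 fold change -4.11 at E15.5 and -4.13 at PND 0), and its effect at E13.5 was not shown to differ (adjusted p = 0.43 and 0.30, edgeR interaction test). Single libraries moved both counts. Leaving out WT replicate 1 of E13.5 gave 212 genes against E15.5 and 318 against PND 0. Leaving out KO replicate 1 of that age gave 162 and 206 genes, and leaving out its KO replicate 2 gave 143 and 157. The count against E15.5 dropped to 206 when WT replicate 2 of that later age was left out. That against PND 0 was 310 when KO replicate 2 of the newborns was left out, but 916 for their WT replicate 3 and 1116 for their KO replicate 1.

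**Figure D5:**
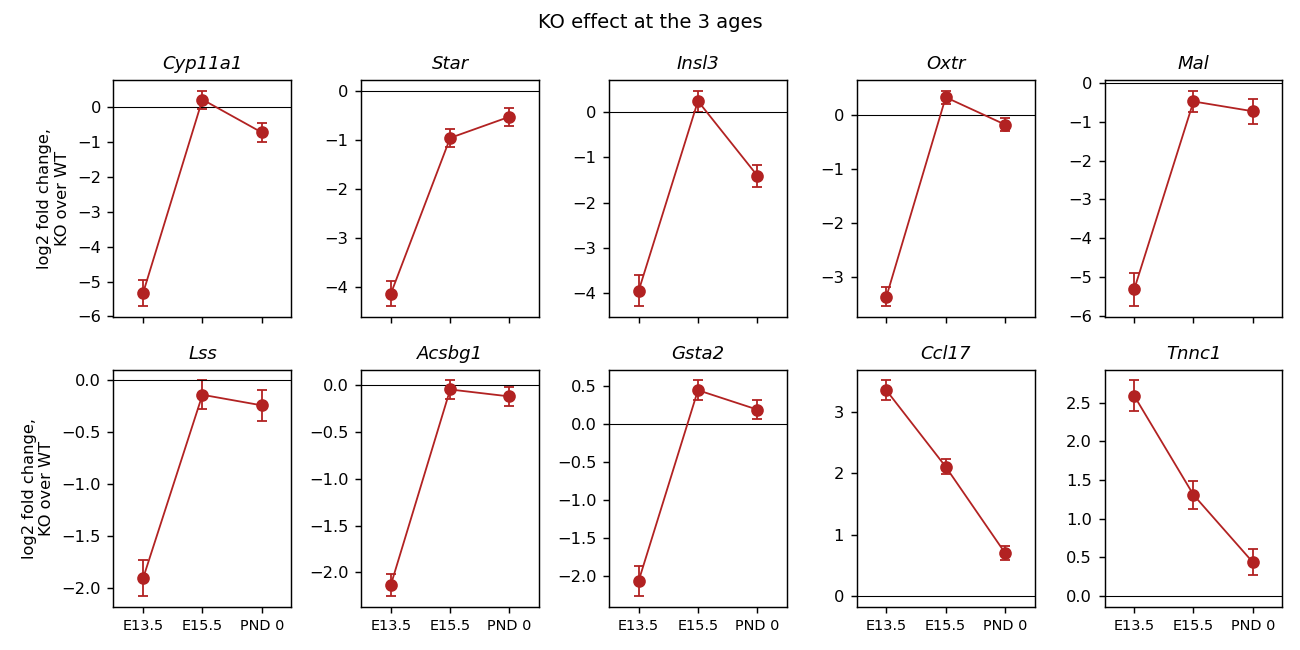
Log2 fold change of KO over WT (points) with its SE (bars) at each of the 3 ages for 10 genes, from the single model of all 17 libraries. The 8 lower genes have log2 fold changes of -5.32 to -1.91 at E13.5 and of -0.97 (Star) to 0.44 (Gsta2) at E15.5, while Ccl17 and Tnnc1 are highest at E13.5.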

How the data were processed

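Whole testis RNA was sequenced as paired-end reads. The authors used SOAPnuke to filter reads, STAR within RNAsik 1.5.4 to align them (GRCm38) and featureCounts to make raw counts for each gene. The strand setting is not given in the sources used here, so antisense or overlapping genes may share reads. The deposited count table holds 19110 genes in 17 libraries of 21020002 to 22166752 counts. Its 24 date-like gene names were restored by gene ID, and 0 columns of other samples were present. Of the gene IDs 19028 were found in GENCODE vM21, from which coordinates were taken.

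Groups followed the titles. The 3 E15.5 libraries titled WT carry a genotype label of KO and were kept as titled. Genes were filtered with filterByExpr (475 left out), scaled by TMM and fitted with edgeR 4.0.16's quasi-likelihood test in R 4.3.3, in 1 model of 6 groups over all 17 libraries, so E13.5 shares the other ages' spread. P-values were adjusted by Benjamini-Hochberg over 18635 genes. Changed genes had an adjusted p below 0.05 and differed 1.5-fold or more, and differences between ages were called on the adjusted p alone. The fit was tested on simulated data. Alternatives were other scalings, filters and thresholds, DESeq2 1.42.0, limma 3.58.1 voom, a robust fit, the E13.5 libraries alone, a replicate block and leaving out each library. Figures used matplotlib 3.10.9.

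Members and lists were chosen with earlier results of these data known. Genes were named by rule: Inha, members of the steroid, cholesterol, Leydig and activin lists, up to 6 changed genes of smallest adjusted p in each other list (the 2 of highest CPM where none changed), the 15 largest changes in each direction where KO and WT did not overlap and the higher group reached 5 CPM, and genes the study names at this age. The text prints a selection, and some genes are not reported here. Obsl1, Hbb-bh1, Fos, Dhh, Srebf2, Fasn, Sox9, Amh, Pecam1, Cdh5, Aard, Itga6, Cldn5, Spink4, Cela1, Foxl2 and Aldh1a1 were added where outside the rule, after their values were seen. Lists are described by counts and medians, with no set test, and some lists share members.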

Additional observations from a re-analysis of the deposited data

Results flagged for a closer look

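For the genes below the log2 fold change of KO over WT differed between ages by edgeR's interaction test (adjusted p below 0.05), and each value is the log2 fold change at E13.5 minus that at the later age, E15.5 unless PND 0 is named. A negative value means a lower KO testis relative to WT at E13.5 than at the later age. All of these differences share the E13.5 libraries, and the cause of the differences was not tested. Among the genes of steroid synthesis the difference was -3.18 for Star, -5.55 for Cyp11a1, -2.40 for Fdx1, -1.10 for Fdxr, -3.79 for Hsd3b1 and -4.30 for Cyp17a1. For hormones, receptors and their partners it was -4.21 for Insl3, -3.73 for Lhcgr, -1.35 for Mc2r, -3.37 for Mrap, -3.08 for Crhr1, -3.70 for Oxtr, -3.09 for Agt, -2.57 for Ren1 and -1.42 for Prlr. Mrap2 ran the other way, with a difference of 2.92 against PND 0. Among the regulators it was -1.53 for Cebpa and -1.31 for Cited1. For Inhba, the activin A subunit, it was -1.41. For cholesterol synthesis it was -1.02 for Hmgcs1, -1.76 for Lss, -1.59 for Dhcr7, -1.68 for Fdps, -0.76 for Fdft1, -0.81 for Sqle, -1.20 for Cyp51, -1.57 for Hsd17b7 and -0.92 for Sc5d. Idi1 passed the test against PND 0 only, with a difference of -1.54. For sterol import and fatty acid activation the values were -1.97 for Scarb1 and -2.09 for Acsbg1.

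Sertoli cell markers also differed, with -0.69 for Cst9, -1.08 for Defb19, -1.02 for Clu and -1.73 for Etd. Against PND 0 the Sertoli differences were -1.90 for Cldn11, -1.09 for Aard and 0.85 for Vnn1. Endothelial markers had positive differences, 0.76 for Sox7, 1.46 for Gja5 and 1.15 for Gja4 against E15.5. Against PND 0 they were 1.24 for Mecom and 1.15 for Cldn5. Heat shock genes gave -1.70 for Hspa1a, -1.52 for Hspa1b, -0.80 for Hspd1 and -0.68 for Hspe1. Enzymes and the kinase Cdk18 gave -2.51 for Gsta2, -1.56 for Aldh1l1, -1.44 for Cdk18 and -4.69 for Xdh. Peptide and complement genes gave -3.28 for Npy, -2.02 for Nppc, -1.56 for Pdyn, -2.60 for Sct, -3.39 for C4b and -2.37 for C7. For Mal and Clps, a proteolipid and colipase, it was -4.84 for Mal and -5.83 for Clps. The rises had positive differences, 1.25 for Ccl17 and 1.28 for Tnnc1 against E15.5. Against PND 0 the values were 1.39 for Cx3cl1, 1.40 for Pnmt and -0.73 for Cdkn1c.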

How the results depend on the processing

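No alternative reversed the direction of a named gene that was called. With DESeq2 the count of genes whose KO effect differed was 514 against E15.5 and 946 against PND 0, and with limma voom it was 270 and 496. With adjusted p alone 819 genes were changed and 229 higher. With an absolute log2 fold change above 1.5, 196 were changed, 183 lower and 13 higher, among them 6 cholesterol, 3 fatty acid and 1 Sertoli gene lower and 0 endothelial genes higher. With glmTreat against 1.5-fold, 179 were changed, 170 lower and 9 higher, among them 13 cholesterol, 6 fatty acid and 3 Sertoli genes lower and 0 endothelial genes higher. With WT replicate 2 as the only E13.5 WT library, 283 were changed, 220 lower and 63 higher, with 5 fatty acid genes lower, 0 endothelial genes higher and 115 and 135 genes differing from E15.5 and PND 0. Among the genes printed here, those that lost their call in it were Por, Cyp21a1, Idi1, Sqle, Cebpa, Inhba, Cdk18, Hspa1a, Hspa1b, Hspd1, Hspe1, Chga, Cela1, Spink4, Itga6, Nanos2, Bcl6b, Ret, Hoxa9, Fgf18, Egr4 and all 7 endothelial genes. It was chosen after seeing the data and assumes that the lone sample varies like the other groups. Leaving out 1 library at a time gave 299 to 633 changed, 262 to 517 lower and 37 to 116 higher genes, 0 to 10 endothelial genes higher, 143 to 422 genes differing from E15.5 and 157 to 1116 from PND 0. Without KO replicate 1, as without KO replicate 2, 131 of 178 named genes held their side of the threshold. The fit of the E13.5 libraries alone called 430 genes, and 23 of the 178 named genes lost their call in it, among them Aard, Cela1, Spink4, Gja4, Bmx, Fgf18, Ret, Bcl6b, Nanos2 and Egr4, while 1 gained it. By limma voom Cela1, Itga6, Nanos2, Ret and Egr4 were not called, besides Cyp11b1 and Cyp21a1. The cause of these shifts was not tested.

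No paired analysis was possible because the KO and WT labels share no number at E13.5. Shared leading numbers at later ages were fitted as a replicate block in the model of all libraries, which gave 573 changed genes at E13.5 and 434 genes differing from E15.5, but 181 from PND 0. Of the 178 named genes 4 lost and 1 gained the call with the block.

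Genes with a few counts in the KO testes, such as Clps and Xdh, have fold changes that depend on the prior count. With 2 KO and 3 WT testes and no label for stage within E13.5, a difference in stage cannot be told apart from genotype.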

Other observations

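Genes known for other organs were also read. Of 14 digestive enzyme genes named for the pancreas 5 were lower in KO testes and 0 higher, against 2.33% of all genes lower. Cpa1, carboxypeptidase A, had 16.4 and 14.2 CPM in KO testes, against 61.0, 72.5 and 44.5 CPM in WT testes (log2 fold change -1.95, SE 0.27, adjusted p = 2.9e-04, edgeR). Pla2g1b, a secreted phospholipase, had 0.729 and 0.913 CPM in KO testes, against 5.84, 4.25 and 6.75 CPM in WT testes (log2 fold change -2.76, SE 0.24, adjusted p = 1.9e-06, edgeR). For both genes every KO value was under every WT value. The 5 also hold Clps, Spink4 and Cela1. Spink4 was not called without KO replicate 2 (adjusted p = 0.204, edgeR), and Cela1 was not without WT replicate 3 (adjusted p = 0.193, edgeR), KO replicate 1 (adjusted p = 0.417, edgeR) or KO replicate 2 (adjusted p = 0.153, edgeR).

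Genes of the ovary and of retinoic acid were read because both bear on the fate of the gonad. Of 11 ovarian genes 0 passed by edgeR, while 10 had a positive log2 fold change. At an unadjusted p below 0.05 by edgeR 4 were higher and 1 lower. Of all genes 16.2% passed that mark in either direction. DESeq2 called 2 higher, and limma voom called 0. Foxl2, a transcription factor of granulosa cells, had 1.14 and 1.37 CPM in KO testes, against 0.330, 0.672 and 0.571 CPM in WT testes (adjusted p = 0.059, edgeR). Of 17 retinoic acid genes 0 were called by edgeR (3 at an unadjusted p below 0.05, which 16.2% of all genes passed, 0 by DESeq2 and 0 by limma voom). Aldh1a1, a maker of retinoic acid, had 708 and 593 CPM in KO testes, against 971, 831 and 1088 CPM in WT testes, which passed the adjusted p but not the fold threshold (log2 fold change -0.57, adjusted p = 0.0016, edgeR).

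Markers of tissue that borders the testis were mixed, and the counts here stand against 2.33% of all genes lower and 0.531% higher. Of 13 markers of the mesonephric duct 2 were lower, Pax2, a kidney transcription factor, at 0.683 and 0.593 CPM in KO testes, against 2.40, 2.37 and 2.52 CPM in WT testes (log2 fold change -1.92, adjusted p = 5.0e-04, edgeR), and Ret, a receptor tyrosine kinase, at 1.78 and 2.46 CPM in KO testes, against 8.10, 4.12 and 25.4 CPM in WT testes (log2 fold change -2.56, adjusted p = 0.017, edgeR). Ret was not called without KO replicate 1 (adjusted p = 0.219, edgeR) or KO replicate 2 (adjusted p = 0.126, edgeR). The summed level of the 13 was 267 and 260.3 CPM in KO testes, against 247, 276 and 258 CPM in WT testes, so the genotypes overlapped. Of 7 coelomic epithelium markers 0 passed by edgeR (0 at an unadjusted p below 0.05, 0 by DESeq2 and 0 by limma voom). Of 14 Fgf ligand genes Fgf13 was lower, at 22.0 and 23.3 CPM in KO testes, against 40.3, 35.7 and 36.3 CPM in WT testes (log2 fold change -0.73, adjusted p = 5.4e-05, edgeR). Fgf18 was higher, at 13.2 and 15.1 CPM in KO testes, against 6.78, 9.67 and 5.04 CPM in WT testes (log2 fold change 0.98, adjusted p = 0.0061, edgeR), and was not called without KO replicate 2 (adjusted p = 0.112, edgeR).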
